A study of Arabidopsis thaliana with 18 samples.

Results

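The genes described here are the core of the autonomous flowering pathway of Arabidopsis thaliana, FCA (AT4G16280), FPA (AT2G43410), FLD (AT3G10390), FVE (AT2G19520), FLK (AT3G04610) and LD (AT4G02560), together with their common target FLC (AT5G10140). The 7 members were chosen by name and looked up by locus identifier among the 25016 nuclear genes that appear in at least 1 of the tables. They hold 67 of the 121244 listed introns, with 20 in FCA, 14 in FVE, 12 in LD, 6 each in FLK and FLC, 5 in FPA and 4 in FLD. The study asked how RNA polymerase II (Pol II) halts at gene 3′ ends and how this relates to splicing. It used 14-day-old seedlings of the mutant xrn3 (the T-DNA allele xrn3-3 of XRN3, a nuclear 5′ to 3′ exonuclease), of the accession Col-0 (the wild type), and of Col-0 treated with herboxidiene, an inhibitor of the SF3B part of the spliceosome, or with its solvent DMSO. Both treatments lasted 1 h, with herboxidiene at 5 μM. Native nascent RNA bound to Pol II with serine-2-phosphorylated C-terminal repeats (Ser2P pNET-seq, by an antibody to that mark) was sequenced in all 4 conditions from 2 libraries each. Chromatin-bound RNA (CB-RNA-seq, 2 libraries each) was sequenced for xrn3 and Col-0, and total RNA (3 libraries each) for herboxidiene and DMSO. Polyadenylated RNA was removed before CB-RNA-seq, a step not described for total RNA. The seedlings were whole, so each value is an average over all their tissues.

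The autonomous pathway promotes flowering by keeping down FLC, a MADS-box repressor of flowering, whatever the day length. FCA and FPA are RNA-binding proteins that act on the choice of polyadenylation site in nascent transcripts, FLK is an RNA-binding protein with KH domains, FLD is a histone demethylase of the LSD1 kind, FVE is a WD40 protein of chromatin complexes, and LD is a homeodomain protein. FCA and FPA also limit their own expression, because their pre-mRNAs can be cleaved and polyadenylated inside a long early intron, intron 3 of FCA and intron 1 of FPA, which gives short transcripts without the full reading frame.

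Each table holds 1 pooled value per condition, so no difference below has a replicate check. The tests are two-sided Fisher's exact tests on pooled reads with Benjamini-Hochberg adjustment over all genes or introns tested (threshold 0.05), and they compare these pooled libraries, not the conditions. Intervals are 95% exact (Clopper-Pearson or conditional) and cover counting error only. The listed genes held between 3671597 (herboxidiene) and 25790239 (xrn3) gene body reads in pNET-seq. The listed introns held between 15070870 (herboxidiene) and 29404905 (xrn3) exonic reads. The targeted gene XRN3 had 9931 gene body reads in pNET-seq of xrn3, against 302 in Col-0. Its pNET-seq level scaled by gene length and library total was also higher, 52.2 in xrn3 and 8.01 in Col-0. In CB-RNA-seq it had 6925 exonic reads in xrn3, against 8055 in Col-0, which is no clear fall. The place of the insertion relative to these reads is not given in the sources used here. None of these values therefore checks the label, and "xrn3" below means the libraries labelled so. The 4 fixed markers of green tissue were listed in every pNET-seq table, with a summed level of 632 to 3546 TPM, a read density scaled by gene length and library total. Of the 4 root markers, 2 (SHR and SCR) were listed in all tables and EXP7 in none, with a sum of 24.9 to 89.8 TPM.

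The 3′ end pause index (3′PI) is the pNET-seq read density of the densest 50-bp window around the annotated polyadenylation site (PAS), divided by the density over the gene body. The tables list a gene only where the study called a pause and its level reached 1 TPM. All 7 members were listed in xrn3 and Col-0, 6 in DMSO (not FLD) and 4 in herboxidiene (not FCA, FLK or FLC). Because the window is the highest of many, a 3′PI from few reads is biased upward, which the intervals do not cover.

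FVE stood far above the other members. Its 3′PI was 177 (145 to 216) in xrn3 and 140.4 (106 to 187) in Col-0, higher than 99.3% and 99.1% of the genes listed in those tables. It was 23.2 (12.8 to 40.4) in herboxidiene and 63.1 (34.0 to 117) in DMSO. FVE (chr2:8455936-8459525, plus strand) has 15 exons, and genes with that exon number had a median 3′PI of 46.9 in xrn3 and 37.8 in Col-0. Its peak window held more reads than its whole gene body in xrn3 and Col-0: 379 window and 141 gene body reads in xrn3, 160 and 75 in Col-0. In herboxidiene it held fewer, 18 window and 51 gene body reads, and in DMSO 23 and 24. The window centre lay 110.5 to 140.5 bp beyond the annotated end in the 4 conditions, and the window overlapped the end of the longer RefSeq gene model.

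FPA had the lowest 3′PI of the members in xrn3, Col-0 and herboxidiene, but ranked above LD and FLK in DMSO. Its 3′PI was 7.05 (6.41 to 7.75) in xrn3 and 4.35 (3.64 to 5.16) in Col-0, and 2.60 (1.41 to 4.39) in herboxidiene and 9.12 (7.03 to 11.7) in DMSO. It had by far the densest gene body of the 7, with 1321 gene body reads per kb in xrn3 and 630.0 in Col-0, while the other 6 members lay between 38.4 and 380 in xrn3 and between 18.8 and 159 in Col-0. FPA (chr2:18025247-18031243, minus strand) has 6 exons, and its 3′PI was higher than that of 18.6% of the genes with that exon number in xrn3 and 9.48% in Col-0. Its window straddles its annotated end and lies within the convergent gene ETFQO on the other strand.

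The remaining members lay between FVE and FPA in xrn3 and Col-0. FCA (chr4:9206597-9214825, minus strand, 21 exons) stood at a 3′PI of 44.9 (38.6 to 52.1) in xrn3, against 32.9 (25.7 to 41.8) in Col-0, and 19.7 (12.0 to 30.8) in DMSO. FLD (chr3:3229293-3232345, plus strand, 5 exons) had 26.5 (21.4 to 32.6) in xrn3, against 38.9 (29.8 to 50.5) in Col-0, and 11.0 (3.29 to 29.3), from 5 window reads, in herboxidiene. FCA thus ranked above FLD in xrn3 and below it in Col-0. FLK (chr3:1250553-1254873, minus strand, 7 exons) had 29.2 (24.3 to 34.9) in xrn3, against 15.1 (11.1 to 20.3) in Col-0, and 6.89 (3.07 to 13.6) in DMSO. LD (chr4:1123490-1128421, minus strand, 13 exons) had 12.4 (10.8 to 14.3) in xrn3 and 11.1 (8.75 to 13.8) in Col-0, and 6.02 (2.83 to 11.4) in herboxidiene and 8.70 (4.65 to 15.1) in DMSO. LD stood above 18.4% of the genes with that exon number in xrn3 and 17.4% in Col-0. FLC (chr5:3173497-3179448, minus strand, 7 exons) had 15.6 (10.3 to 23.0) in xrn3 and 13.9 (7.15 to 24.7) in Col-0, from 30 and 13 window reads, and 11.3 (3.52 to 28.2) in DMSO. Some windows moved between conditions, so those values describe different positions. The FLD window centre lay 265.5 bp beyond the PAS in xrn3 and Col-0, over another gene on the same strand, and 20.5 bp in herboxidiene. The FLC centre lay 64.5 bp beyond it in xrn3 and Col-0 and at −55.5 bp in DMSO. For LD these were 74.5 bp and −50.5 bp. From high to low the order in xrn3 was FVE, FCA, FLK, FLD, FLC, LD and FPA, where the intervals of FLK and FLD, FLD and FLC, and FLC and LD overlapped. In Col-0 it was FVE, FLD, FCA, FLK, FLC, LD and FPA, where those of FLD and FCA, FLK and FLC, FLK and LD, and FLC and LD overlapped.

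**Figure D1:**
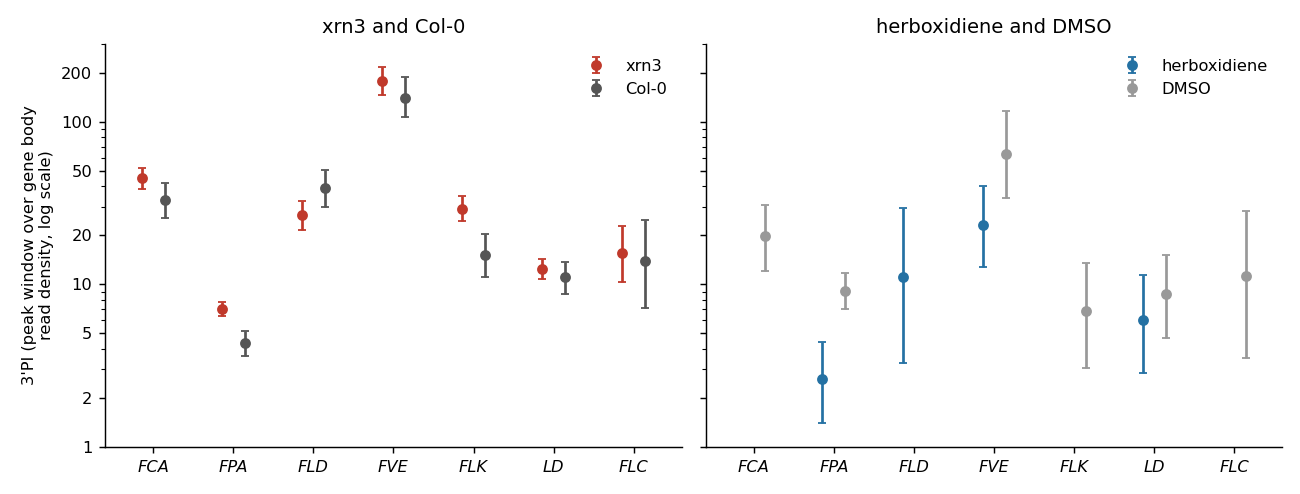
3′PI (log axis) of the 7 members, with xrn3 left of Col-0 in the left panel and herboxidiene left of DMSO in the right panel; bars are 95% exact counting intervals of 1 pooled value per condition, and a missing point is a gene not listed. FVE is highest in every condition, FPA lowest in xrn3, Col-0 and herboxidiene, and the xrn3 and Col-0 intervals do not overlap at FPA and FLK.

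Between xrn3 and Col-0, the pause rose at FLK and FPA, and the other 5 members did not pass the test. FLK, the KH-domain protein, had a 1.93-fold higher 3′PI in xrn3 (interval of the fold 1.36 to 2.77, adjusted p = 0.00214, Fisher's exact test), with 167 window and 460 gene body reads in xrn3 and 54 and 287 in Col-0. This change was above that of 97.4% of all genes tested. FPA had a 1.62-fold higher 3′PI (1.33 to 1.98, adjusted p = 2.70e-05, exact test), with 466 window and 7528 gene body reads in xrn3 and 137 and 3589 in Col-0. Over all 17714 genes listed in both, 11.3% were called higher and 3.66% lower, beside 2 and 0 of the 7 members. The median gene was 1.12-fold higher in xrn3.

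FCA was 1.36-fold higher (adjusted p = 0.127, exact test) and FVE 1.26-fold higher (adjusted p = 0.435, exact test). FLD, the demethylase, was the only member with a lower value in xrn3, at 0.681-fold (0.485 to 0.957, adjusted p = 0.111, exact test). Its window in both genotypes lies beyond its own RefSeq gene over AT3G10400 (U11/U12-31K) on the same strand, and the part of that gene's reads in the result was not tested. LD and FLC both differed by 1.13-fold, with adjusted p of 0.659 and 0.969 in the exact test, and with intervals of 0.864 to 1.48 for LD and 0.544 to 2.46 for FLC, where Col-0 had only 13 window reads.

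The level of nascent transcription was close in both genotypes at the 7 genes, with no test. TPM in pNET-seq, over the gene and its downstream flank, was 5.55 in xrn3 and 5.43 in Col-0 for FCA, 59.0 and 61.8 for FPA, and 10.2 and 11.2 for FLD. FVE had 11.3 TPM in xrn3 and 10.2 in Col-0, FLK 15.1 and 13.5, LD 23.2 and 20.7, and FLC 2.63 and 2.51. FLC was the lowest of the 7 in both, above 4.81% of listed genes in xrn3 and 4.18% in Col-0, and the xrn3 to Col-0 ratio stayed between 0.912 and 1.12 at every member. In bulk seedlings, fewer cells that express a gene and less RNA per cell cannot be told apart.

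A pair of short stretches beyond the annotated ends shows where Pol II was densest at FLK, whose pause rose, and at LD, whose pause change did not pass. They are the middle 30 bases of the xrn3 peak windows, sense strand, read from the RefSeq TAIR10.1 genome. The FLK stretch is chr3:1250439-1250468 and the LD stretch is chr4:1123401-1123430, both on the minus strand and outside any annotated gene.
FLK window: aatcattgtttcataatttggtgcttgaat
LD window: atctgattcaatttagtaacagtaacactg
The FLK window centre lay 99.5 bp beyond the PAS in xrn3 and 84.5 bp in Col-0, and the LD window centre 74.5 bp in both.

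Only FVE, FPA and LD were listed in both herboxidiene and DMSO. At FPA the pause fell: its 3′PI was 0.285 times that of DMSO (0.147 to 0.517, adjusted p = 8.70e-05, Fisher's exact test), with 14 window and 614 gene body reads in herboxidiene and 69 and 862 in DMSO. FVE was at 0.368 times (0.156 to 0.868, adjusted p = 0.0818, exact test) and LD at 0.692 times (0.266 to 1.73, adjusted p = 0.727, exact test), neither past the threshold. The LD windows lay 110 bp apart in the 2 conditions, so its values describe different positions. Of the 11590 genes tested, 16.6% were called lower and 1.31% higher, and the median gene was at 0.764 times its DMSO value. Since a gene had to be listed in both conditions to enter, FCA, FLK, FLC and FLD could not be tested. An unlisted gene may lack a called pause or a level of 1 TPM, and these cannot be told apart here. The DMSO counts were low, with 22 window reads for FCA, 9 for FLK and 5 for FLC. The TPM was 28.7 in herboxidiene and 41.0 in DMSO for FPA, 5.60 and 4.87 for FVE, and 17.9 and 14.3 for LD.

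Splicing was read from the SS ratio, the number of intronic reads divided by the number of exonic reads at a splice site, so a higher ratio means more unspliced RNA. Where both sites of an intron or all introns of a gene are summed, a read can count more than once and p is then too small. Whether these counts kept the strand is not given in the sources used here. This bears on FLC, which a long antisense gene (AT5G01675) covers, and on intron 5 of FPA, which holds the antisense gene AT2G09470.

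The introns of FCA and FPA known for internal polyadenylation are among the longest of the plant's introns. FCA intron 3 (chr4:9211512-9213586) is 2075 bp long, longer than 99.9% of all listed introns, and FPA intron 1 (chr2:18029349-18030719) is 1371 bp long, longer than 99.7%. FLC intron 1, which carries known regulatory elements of FLC, has 3493 bp, and FLK intron 2 has 1170 bp. In RefSeq, an FCA transcript retains intron 3 whole, while no annotated transcript ends inside either intron. Their splice sites are shown with those of the introns that responded most, because they are where the ratios below were counted. The 5′ sites show 3 exonic and 17 intronic bases with the first 6 intronic bases in capitals, from RefSeq TAIR10.1, on which 98.8% of the deposited introns begin with GT and end with AG.
FCA intron 3 5′ site: aagGTATGTcaatctccatt
FPA intron 1 5′ site: ccgGTTTGTtcttatctata
FLC intron 1 5′ site: taaGTACGCcttttccttac
FLK intron 2 5′ site: gctGTGAGTctctaaatcct
FCA intron 1 5′ site: ctgGTAAGCatgagttcact
FCA intron 2 5′ site: gaaGTGAGTtaatcttggaa
FLK intron 4 5′ site: cagGTTATCttttgttccgt
The 3′ sites show the last 27 intronic and first 3 exonic bases, with the last 3 intronic bases in capitals.
FCA intron 3 3′ site: tagcttaagtatcagtctttaatgCAGgct
FPA intron 1 3′ site: cttcttatcgaccttttcttgttgCAGgca
FLC intron 1 3′ site: tttttattttttttgtcatctctcCAGcct
FLK intron 2 3′ site: tctctacttgtttcctctttgtcgCAGgtt
FCA intron 1 3′ site: tccttatctggttaatttgatttgCAGatg
FCA intron 2 3′ site: ttttttctgttggttttcatattgTAGatc
The capitals of FCA intron 3 begin 4.51% of all listed introns and those of FPA intron 1 2.34%. GTGAGT, shared by FLK intron 2 and FCA intron 2, begins 4.02%, the capitals of FLC intron 1 0.327% and those of FLK intron 4 0.0858%. The hexamer AATAAA, searched on the sense strand, occurs at no position of FCA intron 3 or FPA intron 1, but 6 times in FLC intron 1 and 2 times in FLK intron 2, and 602 of 798 listed introns of at least 1000 bp (75.4%) hold it. The absence says only that these letters are not in these introns.

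FCA intron 3 had the highest SS ratio of the 20 FCA introns in all 4 RNA conditions, closely followed by intron 20 in Col-0 (0.678). With both sites summed, its SS ratio was 0.690 (0.593 to 0.800) in xrn3 and 0.685 (0.602 to 0.779) in Col-0 in CB-RNA-seq, and 0.632 (0.431 to 0.918) in herboxidiene and 0.496 (0.359 to 0.679) in DMSO in total RNA. The other FCA introns in DMSO lay between 0 and 0.287. FPA intron 1 had 0.366 in xrn3 and 0.379 in Col-0, and 0.497 in herboxidiene and 0.287 in DMSO. It was the highest of the FPA introns in xrn3 (intron 5 at 0.364) and DMSO (the others between 0.0534 and 0.195), but lay below intron 5 in Col-0 (0.426) and below introns 2, 4 and 5 in herboxidiene (1.05, 1.00 and 0.533). RNA that ends inside an intron would leave more intronic reads at the 5′ than at the 3′ splice site. The sites were therefore compared within each condition. Because polyadenylated RNA had been removed before CB-RNA-seq, the xrn3 and Col-0 comparisons could show little of any RNA polyadenylated inside these introns.

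At FPA intron 1 the 5′ site had the higher ratio in all 4 conditions. In DMSO it was 0.438 at the 5′ site (35 intronic, 80 exonic reads) and 0.0714 at the 3′ site (4 and 56), a 6.12-fold difference (2.01 to 24.8, adjusted p = 0.0158, Fisher's exact test). The other conditions had the same direction without passing. The ratios were 0.607 and 0.179 in herboxidiene (adjusted p = 0.135), 0.408 and 0.275 in xrn3 (adjusted p = 0.720) and 0.438 and 0.203 in Col-0 (adjusted p = 0.193), all by the exact test. The difference between conditions was not tested.

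At FCA intron 3 the 5′ site was also higher in each condition, and none of the 4 differences passed. In xrn3 the ratio was 0.783 at the 5′ site (195 intronic, 249 exonic reads) and 0.566 at the 3′ site (107 and 189), with an adjusted p of 0.314 in the exact test. In Col-0 it was 0.729 and 0.622 (adjusted p = 0.770, exact test). In total RNA the ratios were 0.741 and 0.278 in herboxidiene, from 58 and 18 exonic reads, and 0.582 and 0.341 in DMSO, from 79 and 44 (adjusted p = 0.673 and 0.724, exact tests). Long introns as a class lean the same way: over listed introns of at least 1000 bp, the median log2 of the 5′ over the 3′ ratio was 0.64 in herboxidiene and 0.62 in DMSO, 0.19 in xrn3 and 0.12 in Col-0. Among them FPA intron 1 stood above 70.3% in herboxidiene, 77.2% in DMSO, 64.4% in xrn3 and 82.5% in Col-0, and FCA intron 3 above 62.9%, 52.1%, 60.9% and 52.4% in the same 4 conditions.

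**Figure D2:**
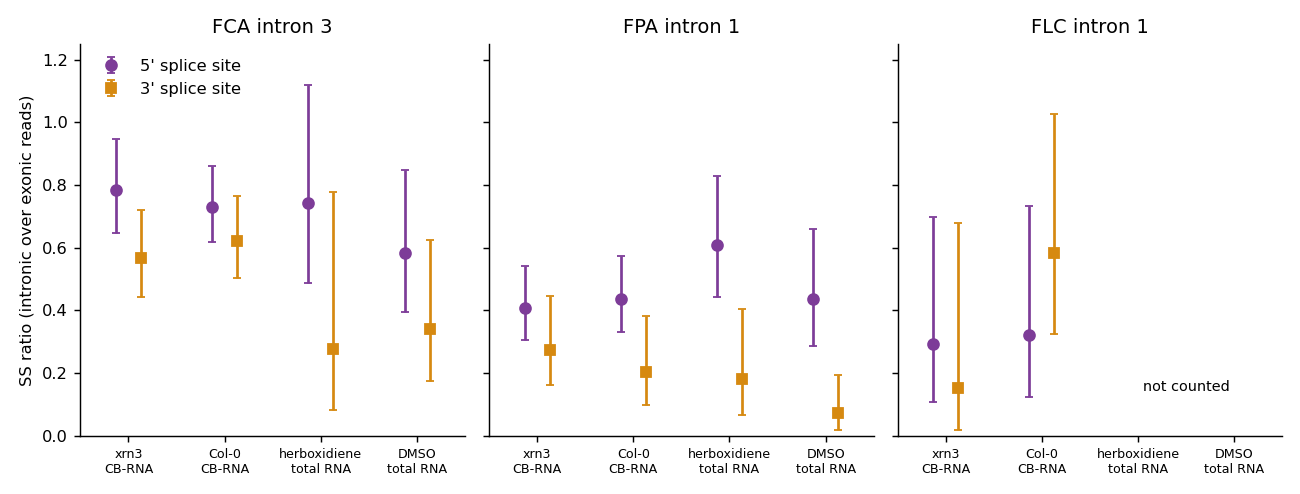
SS ratio at the 5′ (circles) and 3′ (squares) splice sites of FCA intron 3, FPA intron 1 and FLC intron 1 in xrn3, Col-0, herboxidiene and DMSO; bars are 95% exact counting intervals of 1 pooled value. The 5′ value is above the 3′ value in all conditions for FCA intron 3 and FPA intron 1, with intervals that do not overlap at FPA intron 1 in herboxidiene and DMSO.

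Some introns of other members also passed this test. In xrn3, 2 of 63 member introns had a higher 5′ ratio (against 2.37% of all introns tested) and 1 a higher 3′ ratio (against 3.2%). LD intron 1 had 0.232 at the 5′ and 0.0551 at the 3′ site, LD intron 12 had 0.376 and 0.0952, and FVE intron 1 was the reverse with 0.0315 and 0.117. In Col-0, 2 of 66 were higher at the 5′ site (against 3.26%) and 1 at the 3′ site (against 4.5%). LD intron 1 was again called, at 0.335 and 0.0611 (5.48-fold, adjusted p = 2.77e-05, exact test), beside FLK intron 3, at 0.763 and 0.304 (2.51-fold, adjusted p = 0.00933, exact test). FCA intron 1 was the reverse in Col-0, at 0.00268 from a single intronic read at the 5′ site and 0.0428 at the 3′ site (adjusted p = 0.00391, exact test). In total RNA of herboxidiene, 1 of 57 member introns was higher at the 5′ site (against 1.34%). It was FLK intron 2 (0.260 at the 5′ and 0.0440 at the 3′ site, adjusted p = 0.0146, exact test). In DMSO, 1 of 61 was higher at the 5′ site (FPA intron 1, against 1.05%) and 1 at the 3′ site (against 1.03%). The latter was FLK intron 1 (0.0750 and 0.500, adjusted p = 0.0291, exact test).

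The summed SS ratio was higher in herboxidiene at all 6 members that were counted in total RNA. At gene level, 85.7% of the 9636 genes tested were called higher and 1.19% lower, so this was the common outcome. FPA changed most, with a ratio of 0.592 (0.486 to 0.718) in herboxidiene and 0.144 (0.116 to 0.178) in DMSO, 4.11-fold higher (adjusted p = 6.42e-23, Fisher's exact test). FLK had 0.189 in herboxidiene and 0.0674 in DMSO (2.80-fold), and FVE, the most fully spliced member, 0.0330 and 0.0147 (2.25-fold). FCA had 0.222 and 0.110 (2.02-fold), FLD 0.514 and 0.260 (1.98-fold), and LD 0.309 and 0.161 (1.92-fold), all 5 with adjusted p of at most 3.41e-05 in the exact test. The median gene was 3.81-fold higher, which the interval of FPA (3.06 to 5.51) contained, while the intervals of the other 5 lay below it. FPA's change exceeded that of 53.5% of genes, and theirs that of between 21.0% (LD) and 35.8% (FLK).

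The response was uneven along FCA. Intron 1 had 38 intronic and 116 exonic reads in herboxidiene, against 2 and 230 in DMSO, a ratio of 0.328 against 0.00870 (37.7-fold, interval 9.38 to 325, adjusted p = 9.82e-14, exact test). Intron 2 had 0.470 in herboxidiene, against 0.0293 in DMSO (16.0-fold, 6.67 to 46.4, adjusted p = 2.44e-15, exact test). Intron 3, the intron of internal polyadenylation, differed by 1.27-fold (0.770 to 2.10, adjusted p = 0.418, exact test). Of the 17 introns after it, only intron 10 was called higher, with 0.341 in herboxidiene and 0.0357 in DMSO (9.56-fold, adjusted p = 0.000326, exact test), and none was called lower. The largest value in the lower direction, intron 5 with 0.0851 in herboxidiene and 0.253 in DMSO, did not pass (adjusted p = 0.0961, exact test).

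Summed over introns 4 to 20, the FCA ratio was 0.106 (0.0813 to 0.136) in herboxidiene and 0.103 (0.0851 to 0.125) in DMSO, from 652 and 1190 exonic reads. Summed over introns 1 and 2, it was 0.403 (0.316 to 0.511) in herboxidiene and 0.0184 (0.00789 to 0.0366) in DMSO. The split was chosen after the values were seen and has no test. Genes with at least 10 introns had the same direction less sharply: the median change was 4.39-fold over 3404 first and second introns and 2.36-fold over 20255 introns from the fourth on, of which 42.0% were called higher. The late FCA introns had only 17 to 61 exonic reads each in herboxidiene and 25 to 116 in DMSO, which leaves wide intervals on each of them and a tighter one on their sum.

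**Figure D3:**
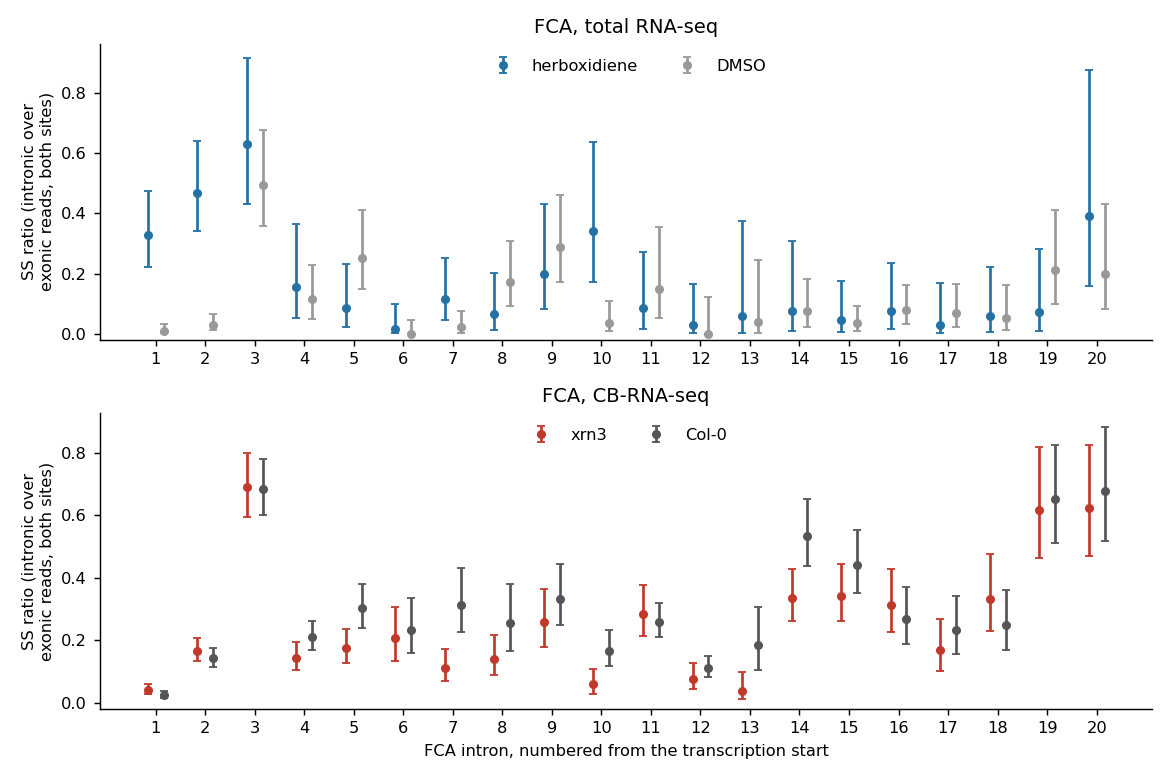
SS ratio of the 20 FCA introns in total RNA (top, herboxidiene left of DMSO) and CB-RNA (bottom, xrn3 left of Col-0); bars are 95% exact counting intervals of 1 pooled value. Introns 1, 2 and 10 stand apart in herboxidiene, intron 3 is high in all 4 conditions, and introns 7, 10, 13 and 14 are among the 5 lower in xrn3.

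FPA showed another pattern, with all 5 introns called higher and its long intron 1 least. Intron 1 had 0.497 in herboxidiene and 0.287 in DMSO (1.73-fold, 1.08 to 2.80, adjusted p = 0.0328, exact test), a call that neither splice site gave alone (adjusted p = 0.320 at the 5′ and 0.314 at the 3′ site, exact tests). Intron 4 had 1.00 in herboxidiene, from 10 intronic and 10 exonic reads, and 0.0851 in DMSO (11.8-fold, adjusted p = 8.34e-05, exact test). Introns 2, 3 and 5 had 1.05, 0.462 and 0.533 in herboxidiene, against 0.195, 0.0534 and 0.102 in DMSO, which is 5.38-, 8.64- and 5.21-fold. Over all listed introns of at least 1000 bp the median change was 2.83-fold (n = 253), above the values of FCA intron 3 and FPA intron 1. These folds start from unlike levels: the median DMSO ratio of the long introns was 0.0628, against 0.496 at FCA intron 3 and 0.287 at FPA intron 1. FLK intron 2, of 1170 bp, differed from both, with 38 intronic and 222 exonic reads in herboxidiene, against 1 and 371 in DMSO, a 63.5-fold change (interval 10.5 to 2580, adjusted p = 8.93e-14, exact test).

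The remaining introns of FLK, FLD, FVE and LD had mixed responses. In FLK, intron 5 had 13 intronic and 87 exonic reads in herboxidiene and 0 and 228 in DMSO, at least 11.4-fold higher against a floor of 3 reads (adjusted p = 4.52e-07, exact test), and intron 1 was called 1.78-fold higher with both sites summed (adjusted p = 0.0365, exact test). Neither site of FLK intron 1 gave this call alone (4.67-fold at the 5′ site, adjusted p = 0.0750, and 1.44-fold at the 3′ site, adjusted p = 0.293, exact tests), and introns 3, 4 (0.0225 and 0.0281) and 6 did not pass. In FLD, introns 1, 2 and 3 rose 9.21-, 5.34- and 3.24-fold, and intron 4, the least spliced, had 0.828 in herboxidiene and 0.821 in DMSO. In FVE, introns 1, 4, 5 and 8 rose, led by intron 8 with 0.0611 and 0.00538 (11.4-fold from a single DMSO read, interval 1.69 to 483, adjusted p = 0.00551, exact test). FVE intron 2 was the only member intron to fall, with 0 intronic to 261 exonic reads in herboxidiene and 8 intronic to 295 exonic reads in DMSO, at least 2.36-fold lower against the same floor (adjusted p = 0.0160, exact test), a call that neither site gave alone (adjusted p = 0.214 at the 5′ and 0.209 at the 3′ site, exact tests). In LD, introns 1, 6 and 8 rose 6.54-, 5.75- and 3.49-fold, and the other 9 did not pass, among them intron 2 with the largest fold (0.100 and 0.0114, from 4 and 1 intronic reads) and intron 5 with the lowest (0.125 and 0.172). In all, 21 of 61 member introns were called higher and 1 lower, against 57.6% and 3.06% of all 56625 introns tested, and the median change was 1.78-fold over the member introns and 3.68-fold over all introns. Of these 22 calls, 17 also held with at least 1 site alone, 4 with neither (intron 1 of FPA, FVE and FLK and intron 2 of FVE), and 1 (FPA intron 4) had too few reads to be tested by site.

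**Figure D4:**
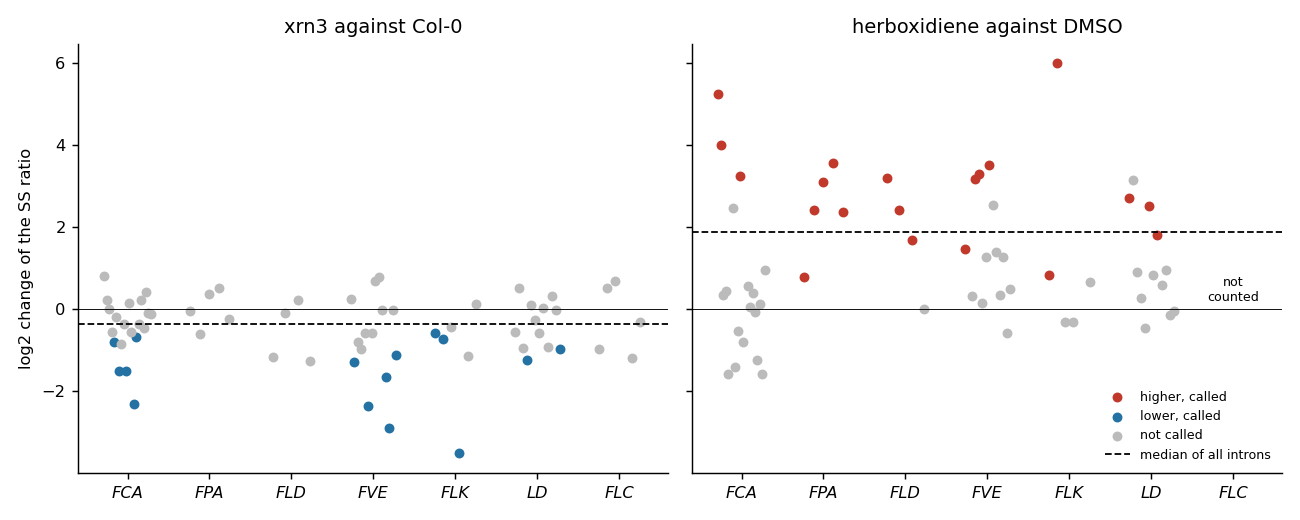
log2 change of the summed SS ratio of each member intron, in xrn3 against Col-0 (left) and herboxidiene against DMSO (right), ordered along each gene from the 5′ end; the dashed line is the median of all introns tested, and 4 introns with no intronic reads in herboxidiene or DMSO are not drawn. Called introns are only lower in xrn3, and the called introns drawn for herboxidiene are all higher, while most FCA points lie below the median line.

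In CB-RNA-seq, xrn3 had lower SS ratios than Col-0 at all 7 genes, and the difference passed the test at 4 of them. Of the 15017 genes tested, 50.6% were called lower and 1.28% higher, so this too was common. FVE fell most, with 0.0777 (0.0699 to 0.0863) in xrn3 and 0.135 (0.121 to 0.149) in Col-0 (0.576-fold, adjusted p = 2.43e-12, Fisher's exact test). FLK had 0.290 in xrn3 and 0.458 in Col-0 (0.633-fold, adjusted p = 2.06e-09, exact test), LD 0.150 and 0.190 (0.789-fold, adjusted p = 0.00182, exact test) and FCA 0.241 and 0.283 (0.852-fold, adjusted p = 0.000458, exact test). FPA (0.240 and 0.264), FLD (0.148 and 0.171) and FLC (0.593 and 0.619) did not pass, with intervals of the fold of 0.707 to 1.17, 0.632 to 1.18 and 0.674 to 1.35. The median gene was at 0.772 times its Col-0 value. The intervals of FVE and FLK lay below that median and that of FCA above it, while those of FPA, FLD, LD and FLC contained it.

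At single introns, 15 of 66 were called lower in xrn3 and 0 higher, against 20.2% and 1.96% of 92991 introns. The largest fall was FLK intron 4, with 5 intronic and 284 exonic reads in xrn3 and 43 and 214 in Col-0, a ratio of 0.0176 against 0.201 (0.0876-fold, 0.0267 to 0.227, adjusted p = 1.43e-08, exact test). It is 83 bp long, has the rarest of the 5′ sites shown, and fell at both sites tested apart. FVE had 5 introns that fell, led by intron 12 (0.0255 in xrn3 and 0.190 in Col-0, 0.134-fold, adjusted p = 0.000196, exact test). FCA also had 5 that fell (5, 7, 10, 13 and 14), led by intron 13 (0.0374 and 0.184, adjusted p = 0.0182, exact test), while its introns 1 to 4 and 15 to 20 did not pass. FCA intron 3 differed by 1.01-fold (0.825 to 1.23) and FPA intron 1 by 0.967-fold (0.678 to 1.38). LD introns 4 and 12 fell (0.425- and 0.507-fold), and FLK introns 1 and 2 as well (0.672- and 0.605-fold). The largest values in the higher direction, at FCA intron 1 (0.0411 and 0.0234), FVE intron 9 (0.166 and 0.0959), LD intron 2 (0.0563 and 0.0391), FLK intron 6 (0.277 and 0.253), FPA intron 4 (0.0800 and 0.0556) and FLD intron 3 (0.179 and 0.153), did not pass, nor did the lower values at FPA intron 2 (0.132 and 0.201) and FLD intron 4 (0.387 and 0.929). FCA intron 1 depended on the site: its 5′ site alone was called higher (0.0401 in xrn3 and 0.00268 in Col-0, adjusted p = 0.0111, exact test), with a single intronic read in Col-0, and its 3′ site had 0.0422 and 0.0428. Of the 15 introns that fell, 7 were also called with at least 1 site alone and 8 with neither.

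FLC, the target of the pathway, was the member with the least data. It was counted in CB-RNA-seq only, with 135 exonic reads over its 6 introns in xrn3 and 281 in Col-0, and not in total RNA. Its summed ratio, 0.593 (0.444 to 0.787) in xrn3 and 0.619 (0.510 to 0.751) in Col-0, was the highest of the 7 genes in both, and its antisense gene may share these reads. FLC intron 1 had 9 intronic and 37 exonic reads in xrn3 and 29 and 61 in Col-0, which is 0.243 against 0.475 (0.512-fold, 0.192 to 1.27, adjusted p = 0.334, exact test). Its 5′ and 3′ ratios were 0.292 and 0.154 in xrn3 and 0.320 and 0.583 in Col-0, so the order of the sites differed between the genotypes, with neither difference past the exact test (adjusted p = 1 and 0.755). The largest values in either direction were intron 3 (1.06 in xrn3, 0.660 in Col-0, adjusted p = 0.375, exact test) and intron 5 (0.333 and 0.765, from 12 and 34 exonic reads, adjusted p = 0.459, exact test). At this depth the interval of the gene fold, 0.674 to 1.35, left a change of the size of the median gene undetectable.

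Genes that act with the members were followed in 4 lists. Of 14 further autonomous pathway and FLC RNA processing genes, 5 had a higher and 1 a lower 3′PI in xrn3, with a median log2 change of 0.32, against 0.16 over all genes. The largest rise was CDKC2, a kinase of the elongating Pol II, with 26.8 in xrn3 and 10.7 in Col-0 (adjusted p = 3.41e-09, exact test), and the fall was AT5G14530 (APRF1), with 86.4 and 150.6 (adjusted p = 0.00704, exact test). In herboxidiene, 2 of the 10 tested had a lower 3′PI, led by MSI5, a close relative of FVE, with 4.27 and 24.6 in DMSO (adjusted p = 0.00243, exact test). The median log2 change was −0.32, against −0.39 over all genes. At gene level, 8 of 13 had a lower SS ratio in xrn3, led by the histone deacetylase HDA6 (0.218 and 0.543 in Col-0), with a median log2 of −0.47 against −0.37. All 5 tested had a higher ratio in herboxidiene, led by the demethylase REF6 (0.368 and 0.0677 in DMSO), with a median log2 of 2.09 against 1.93. Over all genes, the pause was called higher at 11.3% and lower at 3.66% in xrn3, and lower at 16.6% in herboxidiene. The SS ratio was called lower at 50.6% of all genes in xrn3 and higher at 85.7% in herboxidiene, so most such calls were the common outcome.

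Of 12 activators of FLC, none of the 11 tested passed for the pause in xrn3 (median log2 0.28), while 3 of 6 were lower in herboxidiene (median log2 −0.87), led by ELF7, a subunit of the PAF1 complex (3.69 and 17.0 in DMSO, adjusted p = 6.45e-07, exact test). Their SS ratio was lower in xrn3 at 7 of 11 (median log2 −0.28), again led by ELF7 (0.183 and 0.291 in Col-0), and higher in herboxidiene at 7 of 8 (median log2 1.61). The largest of these rises was CDC73, also of the PAF1 complex, with 137 intronic and 222 exonic reads in herboxidiene and 0 and 275 in DMSO, at least 56.6-fold higher against the floor of 3 reads. Of 11 Polycomb and vernalization genes, none of 10 passed for the pause in xrn3 (median log2 0.31) and 1 of 7 fell in herboxidiene (median log2 −0.17), EMF2, with 5.60 and 66.4 in DMSO (adjusted p = 3.24e-05, exact test). Their SS ratio fell in xrn3 at 8 of 10 (median log2 −0.48), led by VRN5 (0.361 and 0.638 in Col-0), and rose in herboxidiene at 6 of 7 (median log2 2.03), led by MSI1 (0.235 and 0.0330 in DMSO). Beside both lists stand the all-gene shares of 50.6% with a lower SS ratio in xrn3 and 85.7% with a higher one in herboxidiene. For the pause they are 11.3% higher and 3.66% lower in xrn3, and 16.6% lower in herboxidiene.

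Of 10 genes of the FLC clade and floral integrators, 3 of 5 tested had a lower pause in herboxidiene (median log2 −2.43), led by MAF2, a paralog of FLC in a cluster of near copies that may share reads, with 3.56 and 40.7 in DMSO (adjusted p = 3.90e-08, exact test). In xrn3, 1 of 8 rose (MAF3, 48.6 and 34.4 in Col-0) and 1 fell (SVP, the repressor that binds with FLC, 15.9 and 19.0), with a median log2 of 0.05. The SS ratio fell in xrn3 at 4 of 8 (median log2 −0.16), with SVP lowest (0.295 and 0.446 in Col-0). In herboxidiene, 1 of 4 rose (SVP, 0.0978 and 0.0371 in DMSO) and 1 fell, SOC1, the integrator that FLC represses (0.0253 and 0.0433, adjusted p = 0.0120, exact test), with a median log2 of 0.15. The all-gene medians are those given with the first list. Of all genes, 16.6% had a lower pause in herboxidiene, and 11.3% a higher and 3.66% a lower pause in xrn3. The SS ratio was called lower at 50.6% in xrn3, and higher at 85.7% and lower at 1.19% in herboxidiene.

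The introns most like FCA intron 3 and FPA intron 1 were sought among 33532 introns with reads at both sites in all 4 RNA conditions, by Euclidean distance over their 8 log2 SS ratios. Nearest to FCA intron 3 were GRF1 intron 3 (distance 0.806), SWEET16 intron 1 (0.846) and AK3 intron 6 (0.858), of 300, 116 and 87 bp. Nearest to FPA intron 1 were intron 4 of the phosphatidylinositol 4-kinase gene AT1G49340 (1.08), AT1G78420 intron 7 (1.26) and AAT intron 4 (1.32), of 162, 210 and 82 bp. All 6 were far shorter than the introns they resembled. Introns of at least 1000 bp are rare, 798 of the 121244 listed, so these lengths say little about the resemblance.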

How the data were processed

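The authors trimmed reads with Trimmomatic 0.39 (RNA-seq) or fastp (pNET-seq), aligned them to TAIR10 with HISAT2 2.2.0, kept unique alignments and removed pNET-seq duplicates by molecular identifiers. They deposited, per condition and with replicates pooled, gene body and window read counts, 3′PI (a ratio of densities), TPM, and intronic and exonic counts at each splice site. Their own columns of p-values for single pauses were not used. Here, 8 tables were used. Another Col-0 table with 4 value columns names no assay and was not used. Fisher's exact tests (scipy 1.17.1) with Benjamini-Hochberg adjustment covered all nuclear genes listed in both conditions, or all introns with at least 10 exonic reads in each. These scripts were tested on simulated counts. Intervals are 95% exact. Named were the 7 members, FCA intron 3, FPA intron 1, FLC intron 1, each member's introns of largest rise and fall (a 0 counted at a floor of 3 reads), the called list genes of largest rise and fall, XRN3, and the 3 introns nearest to FCA intron 3 and FPA intron 1. Other called introns were named after their values were seen. Members and lists were chosen with earlier results of these data known. Sequences and overlaps come from RefSeq TAIR10.1.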

Additional observations from a re-analysis of the deposited data

How the results depend on the processing

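No paired analysis was possible because each table used here pools the libraries of a condition, and for the same reason no replicate was left out. Of 42 counts of called members under another setting, 31 stayed within 1.5 times the reported count. The introns called in xrn3 were 8 at a threshold of 0.01, 6 with the 5′ site alone and 4 with the 3′ site alone. The 6 at the 5′ site include FCA intron 1, which was called in the higher direction. Those called in herboxidiene were 12 and 14 with the 5′ and 3′ site alone, where fewer reads enter. The introns called between ends were 1 in xrn3, 0 in DMSO and 0 in herboxidiene at 0.01, and 1 in DMSO with at least 50 exonic reads. Centring gene changes on the median gene, chosen after seeing the data, let 2 of the calls in xrn3 (FVE and FLK) and 1 in herboxidiene (FPA) keep their direction, with p still that of the uncentred change. It turned log2 changes in xrn3 to 0.14 at FCA, 0.24 at FPA, 0.16 at FLD, 0.032 at LD and 0.31 at FLC, and in herboxidiene to −0.91 at FCA, −0.95 at FLD, −0.76 at FVE, −0.44 at FLK and −0.99 at LD. Centring introns turned FPA intron 1 to 0.32 in xrn3, and FPA intron 1, FLD intron 4 and FCA intron 3 to −1.09, −1.87 and −1.53 in herboxidiene. In xrn3 the 5′ site alone turned FLK intron 6 to −0.13 and FLD intron 3 to −0.18, and the 3′ site alone turned FPA intron 4 to −0.085, FPA intron 1 to 0.44, FCA intron 3 to −0.14 and FCA intron 1 to −0.022. In herboxidiene the 5′ site alone turned FLK intron 4 to 0.31, and the 3′ site alone turned FLD intron 4 to −0.11 and FCA intron 3 to −0.30. FLC without its intron 1 turned to 0.14 in xrn3. The cause was not tested for these turns.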
